A study of Mus musculus with 12 samples.

Results

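The interferon response and MHC class I genes examined here are 34 genes, taken by symbol from the 52636 genes of the 2 deposited expression tables, and all 34 symbols were found. They were followed in the hippocampus, which stores memories of places and contexts, with 1 library per mouse. The 12 mice were wild-type animals of the strain C57BL6/J, 18 weeks old, in 4 groups of 3: males with low extinction, males with high extinction, females with low extinction and females with high extinction. In fear extinction an animal learns that a cue or place it once feared is now safe, and its fear response wanes. The labels rate each mouse's extinction as low or high without the measurement behind it. All 4 groups shared genotype, strain, age and tissue, and no group received an agent that the labels name. As no mouse gave 2 libraries, p-values refer to the spread between mice. Every change is that of low minus high extinction, so a positive one means a higher level with low extinction.

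Interferons are secreted when a cell senses viral or misplaced nucleic acid. Type I interferons signal through the kinases JAK1 and TYK2 to a complex that holds STAT2 and IRF9 and binds the interferon-stimulated response element (ISRE) in target promoters. Interferon gamma signals to factors that bind the gamma-activated site (GAS). The targets include antiviral effectors and the MHC class I pathway, in which B2m and a heavy chain such as H2-K1 or H2-D1 carry peptides to the cell surface. In brain, these genes are expressed at a low level without infection, in microglia and endothelium and also in neurons and other glia, and MHC class I molecules are known to take part in synaptic remodelling. The members were ordered by role: 9 sensors and transcription factors, 14 antiviral effectors, 3 guanylate-binding proteins, and 8 genes of MHC class I and antigen processing.

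Levels are the authors' deposited TPM, a measure of transcript abundance whose values allow for transcript length and have an equal sum in all libraries. How many reads a library had is unknown. In the authors' deposited tables the mean normalized count of the members lay between 45.4 and 2140 in males and between 39.2 and 2510 in females. The share of TPM in rRNA-derived transcripts was lowest at 8.4% (female low-extinction replicate 3) and highest at 24.8% (male high-extinction replicate 1). The summed level of 6 hippocampal subfield markers lay between 280 and 365 TPM in every library, and Xist matched the labelled sex in all 12. In whole tissue, fewer cells of a type and less RNA per cell cannot be told apart.

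The promoters of 5 members on which the results below turn are shown first, 250 bases before to 50 bases after the annotated start. They are RefSeq sequences on GRCm38.p6, each written 5′ to 3′ on the strand of its gene. Capitals mark the ISRE core GAAANNGAAA or its reverse complement TTTCNNTTTC, and in Irf1 the GAS core TTCNNNGAA, which is its own reverse complement. Ifit1 (chr19:34640639-34640938, plus strand) and Bst2 (chr8:71537423-71537722, minus strand) each hold 2 ISRE cores. Those of Bst2 overlap each other, and a GAS core overlaps their 5′ end. Ifitm2 (chr7:140955912-140956211, minus strand) holds 1 ISRE core. Irf1 (chr11:53769764-53770063, plus strand) holds 1 GAS core. The window of Irf9 (chr14:55603735-55604034, plus strand) holds neither pattern. It begins inside the annotated span of the gene, chr14:55603571-55610030, so the bases before that span were not searched. Irf1 and Irf9 each have 2 windows in the table, of which the upstream one is shown.
Ifit1: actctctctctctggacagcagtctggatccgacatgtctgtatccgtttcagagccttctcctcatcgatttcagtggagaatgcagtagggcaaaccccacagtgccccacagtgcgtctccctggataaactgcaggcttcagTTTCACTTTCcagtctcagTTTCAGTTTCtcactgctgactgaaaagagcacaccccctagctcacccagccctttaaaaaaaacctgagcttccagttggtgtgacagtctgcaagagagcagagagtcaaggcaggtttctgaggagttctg
Bst2: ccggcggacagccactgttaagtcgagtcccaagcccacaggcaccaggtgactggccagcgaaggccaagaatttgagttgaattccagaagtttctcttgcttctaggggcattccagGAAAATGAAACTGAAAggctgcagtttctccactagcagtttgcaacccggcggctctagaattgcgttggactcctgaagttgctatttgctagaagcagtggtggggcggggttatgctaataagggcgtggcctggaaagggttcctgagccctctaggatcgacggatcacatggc
Ifitm2: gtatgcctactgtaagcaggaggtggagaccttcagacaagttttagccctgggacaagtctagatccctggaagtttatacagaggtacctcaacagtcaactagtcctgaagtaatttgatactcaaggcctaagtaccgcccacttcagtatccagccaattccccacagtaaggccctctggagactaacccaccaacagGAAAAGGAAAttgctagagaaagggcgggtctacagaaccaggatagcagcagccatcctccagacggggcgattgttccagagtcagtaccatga
Irf1: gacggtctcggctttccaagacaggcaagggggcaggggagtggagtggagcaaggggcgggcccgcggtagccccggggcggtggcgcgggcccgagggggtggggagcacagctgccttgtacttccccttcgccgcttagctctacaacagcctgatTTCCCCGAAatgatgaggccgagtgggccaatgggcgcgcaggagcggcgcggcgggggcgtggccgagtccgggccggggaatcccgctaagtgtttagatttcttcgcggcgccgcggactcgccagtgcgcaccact
Irf9: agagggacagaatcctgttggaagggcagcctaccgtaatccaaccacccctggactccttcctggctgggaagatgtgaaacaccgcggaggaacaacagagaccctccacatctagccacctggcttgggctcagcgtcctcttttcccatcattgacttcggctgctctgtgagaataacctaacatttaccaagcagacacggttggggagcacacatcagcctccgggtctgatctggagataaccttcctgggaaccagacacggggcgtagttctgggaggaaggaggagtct

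Among the members, 30 had at least 1 promoter window in the RefSeq table, and Tap2, Ifi27, Usp18 and Nlrc5 had none. An ISRE core on either strand was present in 14 of the 30, or 46.7%, against 3.99% of 27025 genes with a window. A GAS core was present in 8 of the 30, or 26.7%, against 9.55% of the 27025 genes. Isg15 held 3 ISRE cores, with first bases 78, 72 and 66 bases before the start, and Gbp3, Ifit3, Ifit3b and Ifitm3 held 2 each. Gbp7, Ifitm3 and Bst2 held both patterns, while H2-K1 and H2-D1 held neither in these windows. A match is a pattern of letters, and its absence says only that these letters do not occur in that window.

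B2m, the light chain shared by all MHC class I molecules, was the most abundant member, with a mean of 127.7 TPM over the 12 libraries. It was followed by Ifi27, a mitochondrial protein induced by interferon, at 53.1 TPM, then by H2-D1 at 29.4 TPM, the transcription factor Irf3 at 29.2 TPM and H2-K1 at 24.3 TPM. The lowest were Nlrc5, the transactivator of MHC class I genes, at 0.50 TPM and Rsad2, the antiviral enzyme viperin, at 0.97 TPM. With so low a level, Nlrc5 entered no limma test and Rsad2 entered that in females only, because genes needed a mean of 1 TPM over the libraries of a fit. The spread between mice of a group was taken as the root mean square of the coefficients of variation of the 4 groups. It was smallest for B2m at 8.3% and Irf1 at 8.7% and largest for Psmb9 at 37.4% and Nlrc5 at 47.5%.

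No member differed between low and high extinction at an adjusted p of 0.05, in males, in females, on average over the sexes or in the difference between the sexes. The count was 0 of 32 in males, against a background of 0% of all genes tested, 0 of 33 in females against 0.0107%, 0 of 32 on average against 0% and 0 of 32 for the difference against 0.00541%, all by limma on log2(TPM + 1) with Benjamini-Hochberg adjustment over all genes. The authors' deposited tables likewise gave an adjusted p under 0.05 to 0 of 34 members in males, where 0.504% of all genes had one, and to 0 of 32 in females, where 0.857% had one.

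Before adjustment, the members' changes lay mainly on one side in males. In limma's test 8 of 32 members had an unadjusted p under 0.05 in males, and all 8 were lower with low extinction: the antiviral effectors Bst2, Ifit1, Ifitm2 and Ifitm3, the transcription factors Irf1 and Irf9, Gbp7, and H2-K1. That was 25% of the members tested, against a background of 3.93% of all genes in that direction. In 28 of the 32 the male change was below 0, against 56.9% of all genes, with a median of -0.15 over the members and -0.02 over all genes. In the male table that the authors deposited, 29 of 34 members were below 0, against 51.6% of all genes, with a median of -0.17. There, 6 of 34 members (Bst2, H2-K1, Ifi27, Ifit1, Irf1 and Irf9) had an unadjusted p under 0.05 and were lower with low extinction, against a background of 4.98%.

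In females the members' changes lay on both sides. By limma 2 of 33 had an unadjusted p under 0.05, Irf9 and Ifitm2, both higher with low extinction. That was 6.06%, against a background of 7.87% of all genes in that direction. The female change was below 0 in 11 of 33 members, against 30.9% of all genes. After median-ratio scaling of the libraries it was below 0 in 14 members, against 50.7% of all genes. In the female table that the authors deposited, 11 of 32 members were below 0, against 55.2% of all genes. There, 0 of 32 had an unadjusted p under 0.05 in either direction, against 5.84% of all genes with low extinction lower and 4.11% with it higher. On average over the sexes 1 of 32 members, Bst2, had an unadjusted limma p under 0.05, against a background of 7.7%.

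**Figure D1:**
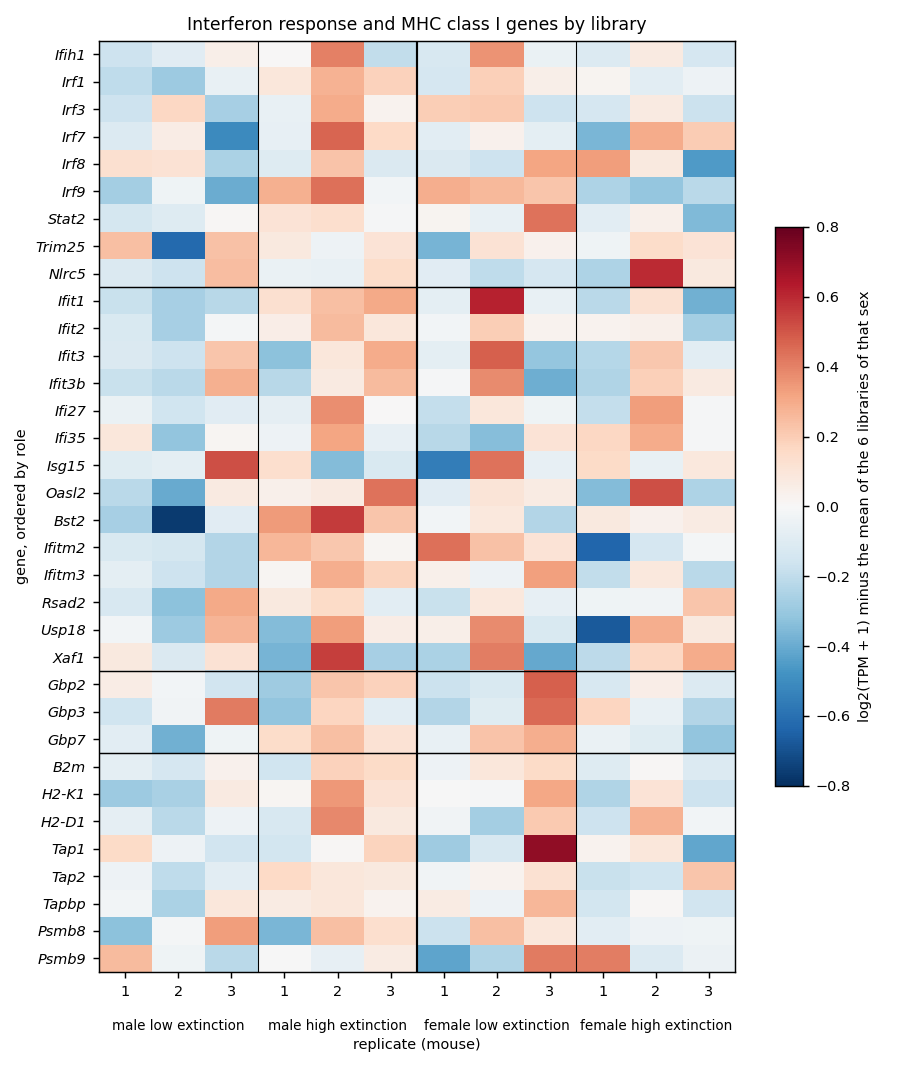
Heat map of log2(TPM + 1) minus the mean of the 6 libraries of the same sex, with the 34 genes as rows grouped by role and the 12 libraries as columns. In the low-extinction males most cells are blue, meaning below the male mean, and Irf9 is blue or near white in the low-extinction males and red in all 3 low-extinction females.

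The summed levels of some cell type markers also differed between these groups, and their part in the members' values was not tested. The summed level of 8 meningeal fibroblast markers lay between 48.8 and 102 TPM in low-extinction males, against 112 to 133 TPM in high-extinction males, and between 110 and 128 TPM in low-extinction females, against 91 to 94 TPM in high-extinction females. The 8 ependymal markers summed to 19.8 to 41.2 TPM in low-extinction males, against 56.9 to 67.2 TPM in high-extinction males, and to 41.1 to 71.5 TPM in low-extinction females, against 27 to 61.1 TPM in high-extinction females. The 8 choroid plexus markers ranged over 56.5 to 971 TPM in low-extinction males and 330 to 3470 TPM in high-extinction males, and over 102 to 1080 TPM in low-extinction females and 22.9 to 1260 TPM in high-extinction females. The 10 microglial markers overlapped, at 219 to 242 TPM in low-extinction males, against 194 to 231 TPM in high-extinction males, and at 230 to 257 TPM in low-extinction females, against 224 to 233 TPM in high-extinction females. Endothelial markers (8 genes) summed to 145 to 153 TPM in low-extinction males, against 134 to 155 TPM in high-extinction males, and to 166 to 169 TPM in low-extinction females, against 143 to 166 TPM in high-extinction females. The 8 thalamus and habenula markers summed to 79.9 to 117 TPM in low-extinction males, against 97.3 to 134 TPM in high-extinction males, and to 149 to 153 TPM in low-extinction females, against 96.9 to 117 TPM in high-extinction females. Border macrophage and monocyte markers (8 genes) summed to 9.95 TPM or less in every library. The 8 markers of T, NK and B cells summed to at most 0.527 TPM in any library. Sums of the neuron, astrocyte, oligodendrocyte and blood markers overlapped between low and high extinction in both sexes. The 6 oligodendrocyte markers summed to 2200 to 3000 TPM in low-extinction males, against 2190 to 3880 TPM in high-extinction males. In females they summed to 2620 to 3430 TPM with low extinction, against 2840 to 2920 TPM with high extinction. No gene of these lists was at 0 in all 12 libraries.

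Among the sensors and transcription factors, Irf9 had the widest gap between the changes of the 2 sexes. IRF9 is the DNA-binding partner of STAT2 in the type I interferon complex, and its gene lies at chr14:55603571-55610030 on the plus strand of GRCm38. In low-extinction males Irf9 had 7.25, 8.70 and 6.55 TPM, against 11.1, 12.5 and 8.78 TPM in high-extinction males. In low-extinction females it had 15.4, 15 and 14.7 TPM, against 10.3, 9.82 and 10.5 TPM in high-extinction females. The groups did not overlap in either sex and lay in opposite order, with the male groups meeting at 8.70 TPM with low and 8.78 TPM with high extinction.

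The log2 change of Irf9 was -0.47 (SE 0.15, n = 3 mice per group) in males, with a limma adjusted p of 0.759. In females it was 0.52 (SE 0.07), with a limma adjusted p of 0.247. The male change minus the female change was -0.98 (SE 0.17), with an unadjusted limma p of 0.000128 and an adjusted p of 0.306. The authors' deposited tables gave smaller log2 changes in the same directions, -0.35 (SE 0.14, DESeq2 adjusted p 0.405) in males and 0.20 (SE 0.11, adjusted p 0.553) in females. Their difference, computed from the authors' deposited tables, was -0.55 (SE 0.18, adjusted p 0.209 over all genes). Irf9 overlaps Rnf31 on the same strand, and 1.82% of its 50-base stretches also occur in other annotated transcripts.

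Irf1, a transcription factor induced by interferon gamma that activates MHC class I and GBP genes, had 7.48, 6.99 and 8.37 TPM in low-extinction males, against 9.38, 10.8 and 10.1 TPM in high-extinction males. In females it had 8.00, 10.2 and 9.19 TPM with low extinction, against 9.01, 8.32 and 8.59 TPM with high extinction. The male groups did not overlap and the female groups did. Its log2 change was -0.37 (SE 0.11) in males with a limma adjusted p of 0.742, and 0.07 (SE 0.10) in females with one of 0.855. In the authors' deposited table the male change was -0.39 (SE 0.14, DESeq2 adjusted p 0.276).

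Irf7, which amplifies interferon production, was lower on average with low extinction in both sexes but overlapped throughout. It had 1.51, 1.81 and 0.895 TPM in low-extinction males, against 1.59, 2.73 and 2.02 TPM in high-extinction males. The females had 1.89, 2.13 and 1.89 TPM with low extinction, against 1.37, 2.76 and 2.52 TPM with high extinction. The average log2 change over the sexes was -0.23 (SE 0.15), with a limma adjusted p of 0.79.

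Stat2, the partner of IRF9 in type I signalling, had 17.7, 18.2 and 19.7 TPM in low-extinction males, against 21.3, 21.7 and 19.5 TPM in high-extinction males. Among females it stood at 22, 20.8 and 29.7 TPM with low extinction, against 20.4, 22.4 and 16.8 TPM with high extinction. Both pairs of groups overlapped. In males its direction depended on the source, with a limma log2 change of -0.16 (SE 0.09) from TPM and one of 0.09 (SE 0.09) in the authors' deposited table. The viral RNA sensor Ifih1, the signalling ligase Trim25 and the factors Irf3, Irf8 and Nlrc5 overlapped between low and high extinction in both sexes. Irf3 ranged from 23.5 to 35.2 TPM over the 12 libraries, and Irf8, which microglia need, from 2.24 to 4.59 TPM.

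**Figure D2:**
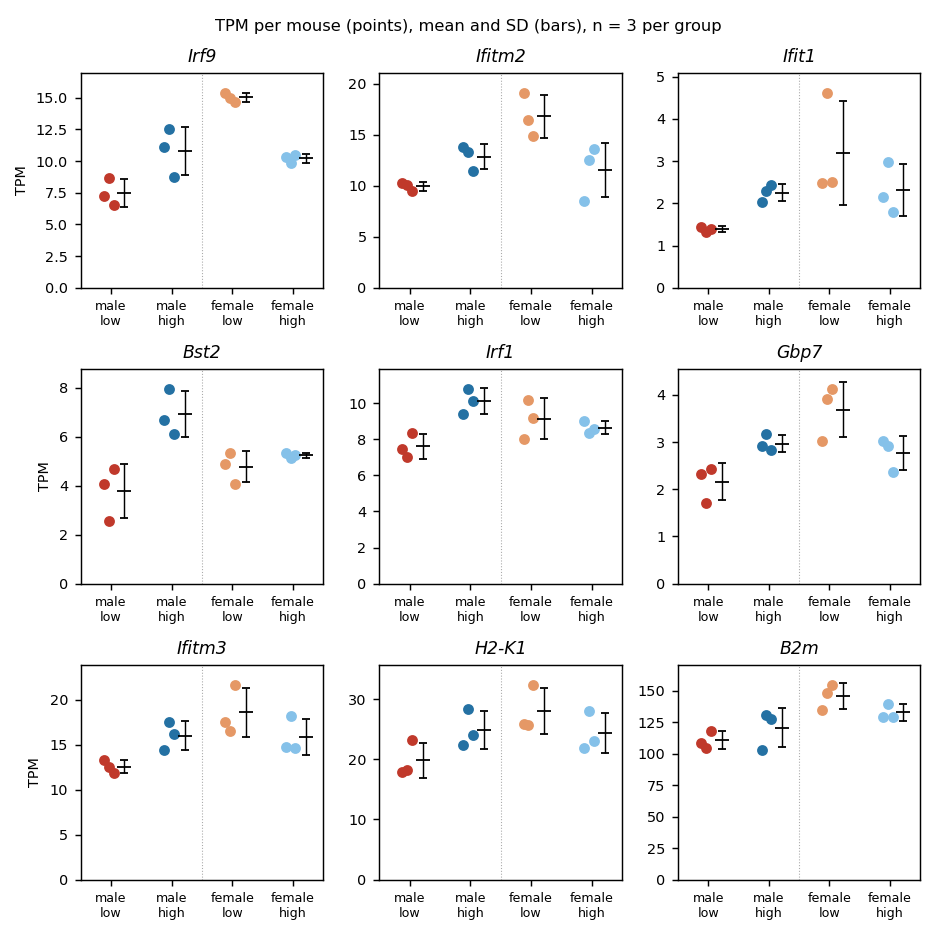
TPM in each mouse (points) for 9 members, with the mean and SD of the 3 mice of a group beside them, in the order male low, male high, female low and female high extinction. The low-extinction points lie below all high-extinction points in males for Irf9, Ifitm2, Ifit1, Bst2, Irf1, Gbp7 and Ifitm3, and above all of them in females for Irf9 and Ifitm2.

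Of the antiviral effectors, Bst2 had the smallest p in males and on average. BST2, also called tetherin, holds budding virus particles at the cell surface, and its gene lies at chr8:71534255-71537456 on the minus strand. It had 4.06, 2.58 and 4.70 TPM in low-extinction males, against 6.70, 7.96 and 6.10 TPM in high-extinction males. The female libraries held 4.90, 5.34 and 4.09 TPM with low extinction, against 5.32, 5.13 and 5.26 TPM with high extinction. The male groups were separate, and the female groups overlapped. The log2 change was -0.75 (SE 0.19) in males with a limma adjusted p of 0.739, and -0.43 (SE 0.12) on average over the sexes with one of 0.389. The authors' deposited table gave -0.85 (SE 0.28, DESeq2 adjusted p 0.189) in males and -0.25 (SE 0.26, adjusted p 0.847) in females. None of the 50-base stretches of Bst2 occurs in another annotated transcript.

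Ifit1, which binds viral RNA that lacks the cap methylation of host mRNA, had 1.45, 1.32 and 1.38 TPM in low-extinction males, against 2.04, 2.29 and 2.43 TPM in high-extinction males. In females it had 2.47, 4.62 and 2.51 TPM with low extinction, against 2.15, 2.99 and 1.80 TPM with high extinction, where 1 low-extinction mouse stood above the other 5. The log2 change was -0.45 (SE 0.13) in males with a limma adjusted p of 0.747, and 0.32 (SE 0.23) in females with one of 0.695. The authors' deposited table gave -0.68 (SE 0.24, DESeq2 adjusted p 0.235) in males and 0.42 (SE 0.26, adjusted p 0.631) in females, and the difference of the 2, at -1.10 (SE 0.35, adjusted p 0.203), was the largest in size among the members with both.

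Ifit3 is the partner that stabilises IFIT1 binding in human cells. It overlapped in both sexes, with 7.13, 6.86 and 9.28 TPM in low-extinction males, against 6.03, 8.41 and 9.85 TPM in high-extinction males, and 10.5, 15.9 and 8.77 TPM in low-extinction females, against 9.35, 13.1 and 10.4 TPM in high-extinction females. Its near copy Ifit3b shares 869 50-base stretches with it, 51.2% of those of Ifit3, so the split of reads between the pair is uncertain. The 4 Ifit members lie side by side on the plus strand of chromosome 19. Ifit2, of that cluster, lay lower in all 3 low-extinction males, with 4.61, 4.07 and 5.04 TPM, against 5.34, 6.28 and 5.51 TPM in high-extinction males, and a log2 change of -0.27 (SE 0.12, limma adjusted p 0.808). Its female groups overlapped, with 6.03, 7.16 and 6.28 TPM with low extinction, against 6.26, 6.32 and 4.89 TPM with high extinction, and a log2 change of 0.14 (SE 0.12, limma adjusted p 0.747).

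Ifitm2 and Ifitm3 encode membrane proteins that block virus entry, and both lie on the minus strand of chromosome 7. Ifitm2 had 10.3, 10.1 and 9.44 TPM in low-extinction males, against 13.8, 13.3 and 11.4 TPM in high-extinction males. In low-extinction females it had 19.1, 16.4 and 14.9 TPM, against 8.50, 12.5 and 13.6 TPM in high-extinction females. As with Irf9, neither sex overlapped and the order was opposite. The log2 change was -0.33 (SE 0.10) in males with a limma adjusted p of 0.752, 0.53 (SE 0.18) in females with one of 0.539, and -0.86 (SE 0.21) for the difference with one of 0.408. The authors' deposited tables gave -0.40 (SE 0.26, DESeq2 adjusted p 0.849) in males and 0.47 (SE 0.28, adjusted p 0.585) in females. Of the 50-base stretches of Ifitm2, 48.5% occur in other annotated transcripts, most of them in Gm45717, which overlaps it on the same strand, so its level is uncertain.

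Ifitm3 had 13.3, 12.5 and 11.9 TPM in low-extinction males, against 14.4, 17.5 and 16.2 TPM in high-extinction males. The females had 17.6, 16.6 and 21.7 TPM with low extinction, against 14.8, 18.2 and 14.6 TPM with high extinction. Only its male groups were separate, with a log2 change of -0.32 (SE 0.10) and a limma adjusted p of 0.759, and 10% of its 50-base stretches occur in other annotated transcripts.

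Isg15, a ubiquitin-like protein and one of the most strongly induced interferon targets, showed no common order. It had 2.33, 2.36 and 4.08 TPM in low-extinction males, against 2.89, 1.79 and 2.26 TPM in high-extinction males, and 1.42, 3.80 and 2.39 TPM in low-extinction females, against 2.95, 2.40 and 2.77 TPM in high-extinction females. Its male log2 change was 0.23 (SE 0.21), with a limma adjusted p of 0.946. Ifi27 had 49.9, 46.3 and 48.6 TPM in low-extinction males, against 49.4, 67.4 and 52.0 TPM in high-extinction males, and 46.6, 57.0 and 52.2 TPM in low-extinction females, against 46.8, 67.5 and 53.0 TPM in high-extinction females. In each sex 1 high-extinction mouse, at 67.4 and 67.5 TPM, stood above the rest.

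Ifi35, an interferon-induced protein without a settled role, had 2.70, 1.79 and 2.51 TPM in low-extinction males, against 2.37, 3.32 and 2.32 TPM in high-extinction males, and 1.85, 1.64 and 2.60 TPM in low-extinction females, against 2.73, 3.09 and 2.31 TPM in high-extinction females. Both pairs of groups overlapped, and the average log2 change was -0.22 (SE 0.12), with a limma adjusted p of 0.73. The other effectors, which are Oasl2, Rsad2, Xaf1 and Usp18, the protease that removes ISG15 from proteins, overlapped in both sexes. In males 11 of the 13 effectors tested had a change below 0, with a median of -0.20, and in females 7 of 14 did, with a median of 0.02.

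The guanylate-binding proteins Gbp2, Gbp3 and Gbp7 are large GTPases, induced mainly by interferon gamma, that attack the membranes of intracellular pathogens. Gbp7 had 2.33, 1.71 and 2.44 TPM in low-extinction males, against 2.91, 3.17 and 2.83 TPM in high-extinction males. Among females it stood at 3.03, 3.91 and 4.13 TPM with low extinction, against 3.03, 2.92 and 2.36 TPM with high extinction. The male groups were separate, and the female groups met at 3.03 TPM. The log2 change was -0.34 (SE 0.14) in males with a limma adjusted p of 0.79, 0.31 (SE 0.14) in females with one of 0.578, and -0.65 (SE 0.19) for the difference with one of 0.496. Of the 50-base stretches of Gbp7, 12.7% occur in other annotated transcripts, most of them in Gm43802, which overlaps it on the same strand. Gbp2 and Gbp3 overlapped in both sexes, from 2.02 to 4.54 TPM and from 2.48 to 5.88 TPM.

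Of the 8 MHC class I and antigen processing genes, 7 lie on chromosome 17 and B2m on chromosome 2. In the deposited TPM, Tap2 in males was the only one of the 8 whose low- and high-extinction libraries did not overlap. In males 7.28% of all genes tested lay wholly lower with low extinction. Without rRNA-derived and mitochondrial genes H2-D1 was separate in males too. B2m had 109, 105 and 118 TPM in low-extinction males, against 103, 131 and 128 TPM in high-extinction males. The female libraries held 135, 148 and 155 TPM with low extinction, against 129, 140 and 129 TPM with high extinction. The groups overlapped in both sexes, with log2 changes of -0.12 (SE 0.11, limma adjusted p 0.951) in males and 0.13 (SE 0.07, limma adjusted p 0.615) in females.

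The heavy chain H2-K1 had 17.9, 18.3 and 23.2 TPM in low-extinction males, against 22.3, 28.4 and 24 TPM in high-extinction males. In females it had 25.9, 25.7 and 32.4 TPM with low extinction, against 21.9, 28.1 and 23.1 TPM with high extinction. Both pairs of groups overlapped, by 1 library in males. Its male log2 change was -0.32 (SE 0.13, limma adjusted p 0.787), and the authors' deposited table gave -0.29 (SE 0.12, DESeq2 adjusted p 0.405). H2-D1 had 26.2, 23.7 and 26.8 TPM in low-extinction males, against 25.2, 36.3 and 29.2 TPM in high-extinction males, and 30.1, 25.2 and 35.6 TPM in low-extinction females, against 27.3, 37.3 and 30.2 TPM in high-extinction females. The high-extinction replicate 2 of each sex carried the highest H2-D1 level of its group. H2-K1 and H2-D1 share 9.63% and 12.8% of their 50-base stretches with other annotated transcripts. The gene that shared most with H2-K1 was H2-Q10, with 179 of its 333 shared stretches, and the one that shared most with H2-D1 was H2-Q1, with 152 of 331.

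Tap1, a subunit of the peptide transporter, had 2.43, 2.01 and 1.77 TPM in low-extinction males, against 1.79, 2.11 and 2.50 TPM in high-extinction males, and 1.68, 1.99 and 4.34 TPM in low-extinction females, against 2.33, 2.49 and 1.45 TPM in high-extinction females. Its partner Tap2 lay lower in all 3 low-extinction males, with 6.33, 5.53 and 6.11 TPM, against 7.41, 7.02 and 6.97 TPM in high-extinction males. Tap2 overlapped in females, with 6.01, 6.29 and 6.80 TPM with low extinction, against 5.32, 5.41 and 7.36 TPM with high extinction. The 2 transporter subunits thus differed in their order in males, with log2 changes of -0.03 (SE 0.15, limma adjusted p 0.996) for Tap1 and -0.22 (SE 0.10, limma adjusted p 0.812) for Tap2, a difference that was not tested. Psmb8, a catalytic subunit of the immunoproteasome, had 1.85, 2.55 and 3.52 TPM in low-extinction males, against 1.77, 3.22 and 2.94 TPM in high-extinction males, and 2.36, 3.47 and 3.02 TPM in low-extinction females, against 2.58, 2.67 and 2.69 TPM in high-extinction females. Psmb8 and Psmb9 overlapped in both sexes, as did Tapbp, which bridges the class I molecule and the transporter. Tapbp had 21.1, 19.5 and 24.3 TPM in low-extinction females, against 18.0, 20.2 and 18.0 TPM in high-extinction females. Of the 50-base stretches of Tap2 and Tapbp, 11.6% and 23.2% occur in other annotated transcripts.

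**Figure D3:**
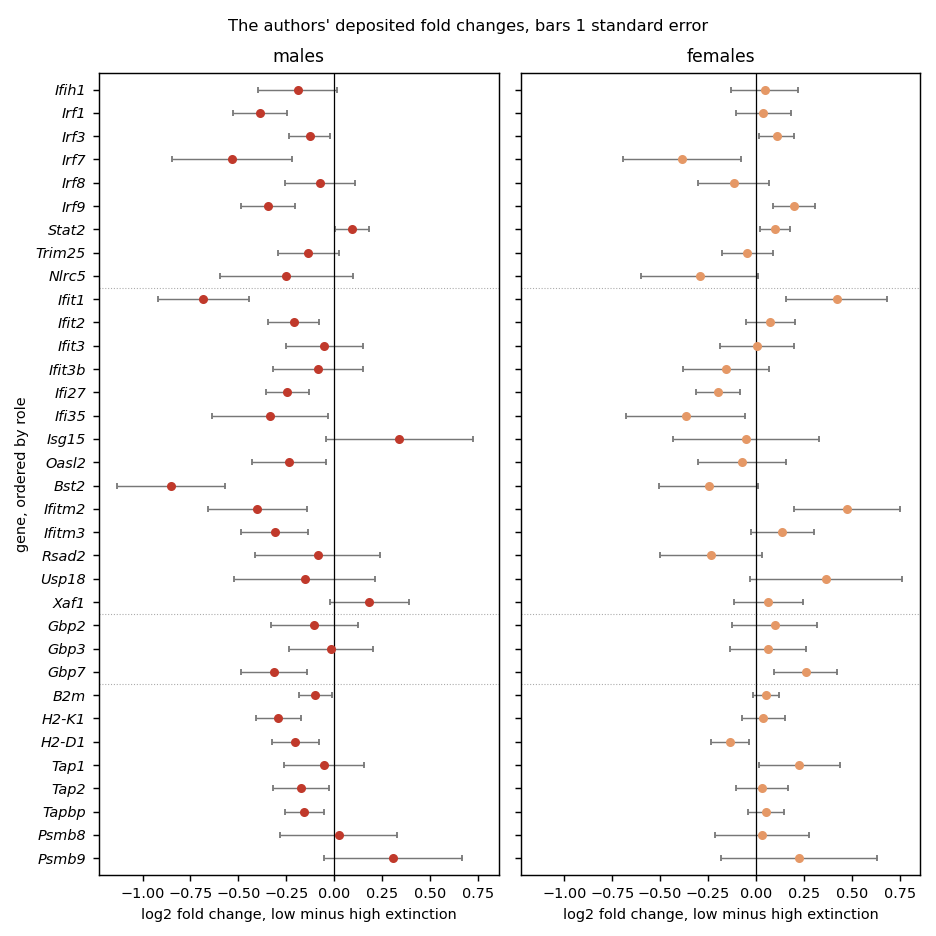
Log2 fold changes of the 34 members in the authors' deposited tables, low minus high extinction, with bars of 1 standard error, males left and females right, and genes ordered by role. In males 29 of 34 points lie left of 0, with Bst2 at -0.85 and Ifit1 at -0.68 farthest out, while the female points lie on both sides of 0.

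The count of members whose 3 low-extinction libraries all lay below the 3 high-extinction libraries was 9 of 32 in males: Bst2, Gbp7, Ifit1, Ifit2, Ifitm2, Ifitm3, Irf1, Irf9 and Tap2. The background in that direction was 7.28% of all genes tested, and 0 members lay wholly above, against 4.2%. After median-ratio scaling the count was 8, without Irf9. Without rRNA-derived and mitochondrial genes it was 9, with H2-D1 in place of Irf9, against 7.58% of all genes. In females 2 of 33 members, Irf9 and Ifitm2, lay wholly above, against a background of 14.3%, so their share was below that of all genes, and 0 lay wholly below, against 1.98%. After median-ratio scaling Irf9 was the only member wholly above in females. Irf9 and Ifitm2 were the 2 members with no overlap and opposite order in the sexes, against 1.08% of all genes. Under median-ratio scaling neither kept this pattern in both sexes. Without rRNA-derived and mitochondrial genes Ifitm2 kept it and Irf9 did not.

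The sexes were set against each other by the male change minus the female change. By limma 10 of 32 members had an unadjusted p under 0.05 for that difference, all below 0, against a background of 7.02%: Bst2, Gbp7, H2-K1, Ifit1, Ifit2, Ifitm2, Ifitm3, Irf1, Irf9 and Stat2. The count was 8 after median-ratio scaling, against 3.46% of all genes. None passed adjustment, the smallest limma adjusted p being 0.306 for Irf9. From the authors' deposited tables, 6 of 32 members had an unadjusted p under 0.05 (Gbp7, H2-K1, Ifit1, Ifitm2, Irf1 and Irf9), against a background of 6.81%. Computed from the same deposited tables, 0 of 32 passed adjustment for the difference, against 0.409% of all genes, and 0 of 32 for the average, against 1.05%. The smallest adjusted p of the difference there was 0.203, for Ifit1. The sexes were tabulated separately, so only changes within a sex were compared.

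Much of the members' variation lay between mice of the same group. Averaged over the 34 members, replicate 2 of the high-extinction males stood 0.21 above the mean of all males on the log2(TPM + 1) scale and replicate 2 of the low-extinction males 0.18 below it. The male groups overlapped on that average, with low-extinction replicate 3 at 0.007 and high-extinction replicate 1 at -0.03. Replicate 2 of the high-extinction males carried the highest value of its group for 23 of 34 members. In high-extinction females replicate 2 was the highest of its group for 21 of 34 members. The low-extinction females split by role. Replicate 2 was the highest of its group for 11 of 14 effectors, with a mean deviation of 0.22, while replicate 3 was the highest for 7 of 8 MHC class I and processing genes and 3 of 3 guanylate-binding proteins, with mean deviations of 0.28 and 0.41. How often each library was the highest of its group over all genes was not counted, so these counts have no background. The share of TPM in rRNA-derived transcripts was 24.8%, 14.7% and 12.2% in high-extinction male replicates 1, 2 and 3. It was 13.5%, 12.5% and 8.4% in low-extinction female replicates 1, 2 and 3. The part of that share in these counts was not tested.

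**Figure D4:**
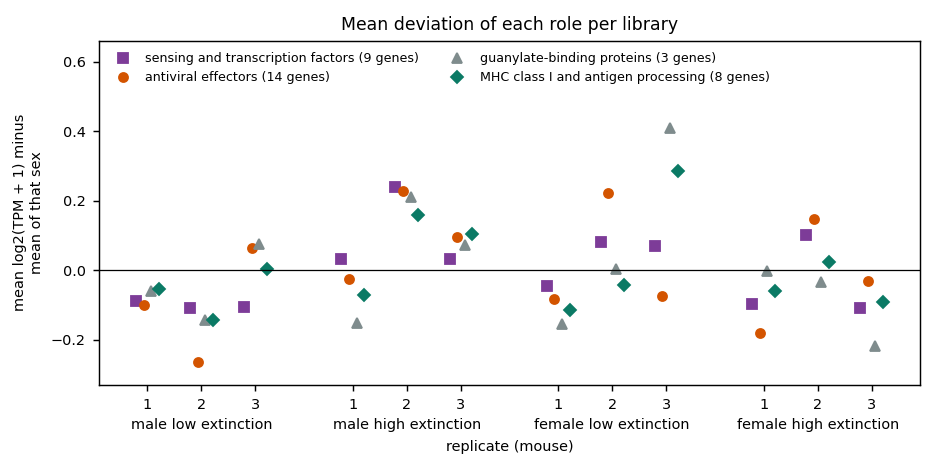
Mean deviation of each role from the mean of its sex, in log2(TPM + 1), for each of the 12 mice, with 1 symbol per role. In low-extinction females the effectors peak in replicate 2 at 0.22 and the MHC class I genes in replicate 3 at 0.28. All 4 roles are above 0 in replicates 2 and 3 of the high-extinction males.

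Genes of the same pathway outside the 34 were counted from 6 lists. Of 43 other interferon-stimulated genes, 24 had an adjusted p in the authors' deposited female table and 1 of the 24 passed there, against a background of 0.857% of all genes. It was Uba7, the activating enzyme for ISG15, with a 1.61-fold higher level in low-extinction females (log2 change 0.69, SE 0.18, DESeq2 adjusted p 0.031). Uba7 had 7.10, 6.10 and 4.82 TPM in low-extinction females, against 4.53, 3.10 and 3.59 TPM in high-extinction females, and its limma adjusted p was 0.511. By limma 0 of the 25 tested passed, and Ifi44l and Ifi205 were listed at 0 in all 12 libraries. Of these 25, 15 had a limma change below 0 in males, against 56.9% of all genes, and 5 in females, against 30.9%. The authors' deposited tables had 24 of 33 below 0 in males, against 51.6%, and 15 of 24 in females, against 55.2%. Of 14 interferon receptor and JAK-STAT genes, 12 were tested by limma, and 0 passed there or in the authors' deposited tables. In males 12 of the 12 had a limma change below 0, against 56.9% of all genes, with a median of -0.09, and in females 3 of the 12 did, against 30.9%, with a median of 0.09. The authors' deposited tables had 10 of 14 below 0 in males, against 51.6%, and 6 of 12 in females, against 55.2%. Among 11 other interferon-inducible GTPases the authors' deposited tables had 10 of 10 below 0 in males, against 51.6% of all genes, with a median of -0.34, and 1 of 7 below 0 in females, against 55.2%, with a median of 0.19, and 0 passed. By limma 8 of 9 of these GTPases were below 0 in males, against 56.9%, and 1 of 9 in females, against 30.9%. Of 18 nucleic acid sensing genes, 0 of the 13 tested by limma passed, and 0 of 15 in males and 0 of 13 in females in the authors' deposited tables. Of 17 other MHC class I and processing genes, 0 of 15 tested by limma in males and 0 of 16 in females passed, and 0 of 17 and 0 of 13 in the authors' deposited male and female tables. Here the limma change was below 0 for 11 of 15 in males, against 56.9%, and 4 of 16 in females, against 30.9%. The authors' deposited tables had 12 of 17 below 0 in males, against 51.6%, and 8 of 13 in females, against 55.2%.

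MHC class II genes are expressed mainly by professional antigen-presenting cells. Of 7 class II genes, Cd74, H2-Eb1 and H2-Ab1 passed in the authors' deposited male table, all lower with low extinction, against a background of 0.504% of all genes. None of the 5 with an adjusted p passed in the authors' deposited female table, and none of the 6 tested by limma passed in either sex. Cd74, the invariant chain of class II molecules, had a log2 change of -1.95 (SE 0.30, DESeq2 adjusted p 5.36e-07) in the authors' deposited male table. The 7 summed to 17.4 to 24.3 TPM in low-extinction males, against 28.7 to 34.8 TPM in high-extinction males, and to 28.6 to 38.1 TPM in low-extinction females, against 20.1 to 26.6 TPM in high-extinction females. Whether the class I and class II changes differ was not tested.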

How the data were processed

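Polyadenylated RNA from 12 hippocampi was sequenced, starting, per the labels' protocols, from 1 µg of RNA each. As the authors' tools the submitters' processing notes list StringTie 1.3.3b, HTSeq, DESeq2, Bowtie2 and TopHat2, and as builds mm10 and GRCm38.p5, with no role for any. No source used here gives the strand setting of the counting. For each sex the authors deposited a TPM table, in which an abundant transcript lowers all others and depth is not kept. The authors also deposited a DESeq2 table per sex with, per the file headers, the mean normalized count (a signal averaged over libraries), the log2 fold change with a standard error, the statistic (a score), and the p-value before and after adjustment. The deposited log2 fold changes do not name their direction. They correlated across genes with the TPM change (low minus high) at -0.578 in males and -0.463 in females, and 101 of 101 and 133 of 134 called genes had the opposite sign, so they were multiplied by -1. Their average and their difference between sexes were tested by the ratio to the combined standard error.

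TPM were tested as log2(TPM + 1), a scale that shrinks the changes of weakly expressed genes, with limma 3.58.1 in R 4.3.3 using a mean-variance trend, at a mean of at least 1 TPM and with Benjamini-Hochberg adjustment at 0.05 over all genes. Each sex was fitted on its own 6 libraries, and the average and the difference of the sexes on all 12. Members, lists and roles were chosen with earlier results of these data known. Values per library are given for the 5 members of smallest p in each comparison and for 12 key members, and for Ifit2 and Tap2, chosen after their values were seen. Alternatives were pseudocounts of 0.5 and 0.1, other filters, scalings and variance models, and leaving out each library. A further gene of the pathway was left out of the lists and is not reported here. The fitting code was tested on simulated data. Positions are from GENCODE M21 on GRCm38, and stretches of 50 bases were compared over its transcripts. Python 3.11.15 with statsmodels 0.14.6 and matplotlib 3.10.9 made the counts and figures.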

Additional observations from a re-analysis of the deposited data

Results flagged for a closer look

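Irf9, the DNA-binding subunit of the type I interferon complex, lay in opposite order in the sexes, with every low-extinction male below every high-extinction male and every low-extinction female above every high-extinction female in TPM. Its male change minus its female change was -0.98 on the log2(TPM + 1) scale (SE 0.17), and the limma adjusted p of that difference was 0.306, with a range of 0.0809 to 0.566 over the alternatives. Ifitm2 showed the same pattern, with a difference of -0.86 (SE 0.21, limma adjusted p 0.408, range 0.35 to 0.686). Of the 50-base stretches of Ifitm2, 48.5% occur in other annotated transcripts. Neither difference passed adjustment, and 1.08% of all genes tested showed the same pattern without overlap in either sex. After median-ratio scaling Irf9 overlapped in males and Ifitm2 in females. Without rRNA-derived and mitochondrial genes Irf9 also overlapped in males, while Ifitm2 overlapped in neither sex. From the authors' deposited tables the difference was -0.55 (SE 0.18) for Irf9 and -0.88 (SE 0.38) for Ifitm2.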

How the results depend on the processing

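The number of members called was 0 in all comparisons under every alternative, the authors' deposited adjusted p-values included, and the 20 log2 changes followed by rule kept their direction and stayed short of the threshold in all 350 repeats. The median male change of the members ran from -0.22, without replicate 1 of the high-extinction males, to -0.08, without replicate 2 of that group. The median female change ran from 0.03 with median-ratio scaling to 0.17, and the median of the average ran from -0.07 to 0.01, so that its sign was not fixed. Counts by unadjusted p and by overlap were repeated after the data were seen. Members at an unadjusted limma p under 0.05 numbered 6 to 8 in males, 2 to 4 in females, 1 to 2 on average and 7 to 12 for the difference when 1 library was left out, against 8, 2, 1 and 10 with all libraries, and 4 in females came without replicate 3 of the low-extinction group. These were all lower with low extinction in males except Xaf1, which was higher without replicate 2 of the high-extinction group, and all higher in females except Ifi35 without low-extinction replicate 3. Over the same repeats 2.24% to 6.19% of all genes were lower in males, 5.02% to 8.19% higher in females and 5.08% to 10.2% below 0 for the difference at that p. On average over the sexes the members counted were all lower, and 1.47% to 3.24% of all genes were. The count on average was 2 with median-ratio scaling, against 3.71% of all genes lower. It was also 2 without rRNA-derived and mitochondrial genes, against 3.03%. Members without overlap in either direction numbered 10 to 17 in males and 4 to 9 in females when 1 library was left out, against 9 and 2 with all libraries, and 2 against 3 libraries separate more easily. The 17, without replicate 1 of the high-extinction males, were 16 lower and 1 higher, against 22.1% and 6.25% of all genes. The 9, without replicate 2 of the high-extinction females, were all higher, against 24% of all genes, while leaving out low-extinction female replicate 2 gave 4 lower and 3 higher, against 3.62% and 25.3%. With median-ratio scaling 1 member, Irf9, did not overlap in females. No paired analysis was possible because the labels give the mice no shared replicate numbers. TPM keep no depth, so counting error per library cannot be stated. With 3 mice a group, changes larger than most members' standard errors could be missed. In the simulated data, a log2 change of 0.5 passed the adjusted threshold for 42% of changed genes in males and 22% in females. It did so for 78% on average over the sexes and 26% for the difference. The simulation was drawn once and gave each gene the same spread and the same changes in both sexes. Its male and female rates therefore do not compare the sexes. The genes changed there were not the weakly expressed ones, so the rates do not describe the weakly expressed members.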
